A study of Mus musculus with 82 samples.

Results

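The comparison described here sets 5 libraries of immunoprecipitated RNA from zone 2 of mouse white matter after stroke against 5 libraries of immunoprecipitated RNA from uninjured white matter. These 10 libraries, of 82 in the series, were chosen by their labels alone, and every gene of the deposited table was described as zone 2 minus uninjured. The RNA was pulled down with ribosomes from laser-captured brain tissue, and the series calls such samples astrocyte-enriched. The zones are numbered 1 to 5 by the study. The labels do not state the mouse line, the promoter or Cre driver of the ribosome tag, strain, sex, age, time after stroke, stroke method or animals per library. What limits the samples as a model of astrocytes can therefore be read only from the marker genes below. The labels tie no library to an animal, so the p-values reflect only how these libraries spread, which may be technical in part.

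Astrocytes are glial cells that take up glutamate, hold water and potassium balance and feed neurons. After injury they become reactive: classically they make more of the intermediate filament proteins Gfap and vimentin and change their secreted proteins. White matter is made of axons, the oligodendrocytes that wrap them in myelin, astrocytes, oligodendrocyte precursors and microglia, the resident macrophages that clear debris through phagocytosis, lysosomes and complement. In ribosome immunoprecipitation, a tagged ribosomal protein made in one cell type is pulled down with the messages it is translating.

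Total counts ran from 13732592 to 21649945 in the zone 2 libraries and from 13211575 to 22267196 in the uninjured ones. Mitochondrial ribosomal RNA took 72.28 ± 4.12% of them in zone 2 and 76.62 ± 3.86% in uninjured tissue (SD, n = 5 each; two-sided exact permutation test, p = 0.135, where 0.00794 is the smallest p that 5 against 5 allows). The direction turned when Gm42418, CT010467.1, Gm23935 and Lars2 were left out of the total, to 86.16 ± 5.07% in zone 2 and 83.06 ± 4.54% in uninjured tissue (p = 0.333 in the same exact test). After these genes and all genes annotated as ribosomal RNA were set aside, 1117504 to 3413186 counts remained in zone 2 and 1582050 to 4947295 in uninjured libraries. All later values are CPM, each gene's count relative to these remaining counts, scaled between libraries by TMM. Reads were amplified and carry no molecular identifiers, so counting intervals would be too narrow and are left out.

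The marker genes showed a mixed RNA pool in both groups. Of the remaining counts, 20 astrocyte markers held 1.40 to 2.41% in zone 2 and 0.786 to 1.26% in uninjured IP, against 0.799 to 0.918% in the 5 uninjured input lysates. The 18 oligodendrocyte and myelin markers held 2.68 to 5.61% in zone 2, 3.5 to 5.70% in uninjured IP and 3.80 to 4.27% in uninjured input. The 18 neuron markers held 0.398 to 1.12% in zone 2, 0.142 to 0.324% in uninjured IP and 0.108 to 0.157% in uninjured input. Microglia and macrophage markers held 0.111 to 0.277% in zone 2, 0.0255 to 0.0485% in uninjured IP and 0.0510 to 0.0614% in uninjured input. In the 3 input lysates after stroke, which cover zones 1 to 3 as one area, astrocyte markers held 1.07 to 1.31%, oligodendrocyte and myelin markers 3.01 to 3.41%, neuron markers 0.175 to 0.229% and microglia and macrophage markers 0.14 to 0.281%. The zone 2 IP was thus above that input for astrocyte and neuron markers and overlapped it for the other 2 lists. The uninjured IP overlapped its own input for astrocyte, oligodendrocyte and myelin and neuron markers and was below it for microglia and macrophage markers. Markers of all these cell types were thus present in the IP. In such bulk libraries, more cells of a type and more RNA per cell cannot be told apart. How much RNA of other cells each pull-down carried was not tested.

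Genes called higher in zone 2 included Ctsd and Ctsb of the lysosome, C4b, C1qb, C1qc and C3 of complement, B2m of antigen presentation, Csf1r of microglia, Vim and Serpina3n of reactive astrocytes, and neuronal genes such as Snap25, Syp and Thy1. Genes called lower included the nuclear RNA Malat1, the long RNA Sox2ot and the oligodendrocyte genes Gjc3, Mag and Aspa. In each of the lists that hold these genes, most tested members did not pass. All gene lists were chosen with earlier results of these data known, so their counts of calls are a description only. Of 10522 genes tested, 99 passed an adjusted p of 0.05 in edgeR's quasi-likelihood test with Benjamini-Hochberg adjustment, which is 0.941%. Of these, 69 were higher (0.656%) and 30 lower (0.285%), 1472 genes had an unadjusted p under 0.05, and the median log2 difference over all tested genes was -0.023. The 5 zone 2 libraries stood wholly above the 5 uninjured libraries for 202 genes (1.92%) and wholly below for 230 (2.19%). The count of calls moved with the libraries: without zone 2 replicate 2, 3 or 5 it was 50, 57 or 150, and without uninjured replicate 1, 2 or 4 it was 53, 48 or 64. When the 4 other white matter zones shared the estimate of spread, 0 genes passed, with 1112 at an unadjusted p under 0.05. When that fit left out 4 libraries of the other zones, 36 passed, 33 of them among the 99. The libraries left out were zone 1 replicates 1 and 5, zone 3 replicate 1 and zone 5 replicate 3. They had 6380 to 14079 detected genes and 943010 to 1987048 remaining counts.

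**Figure D1:**
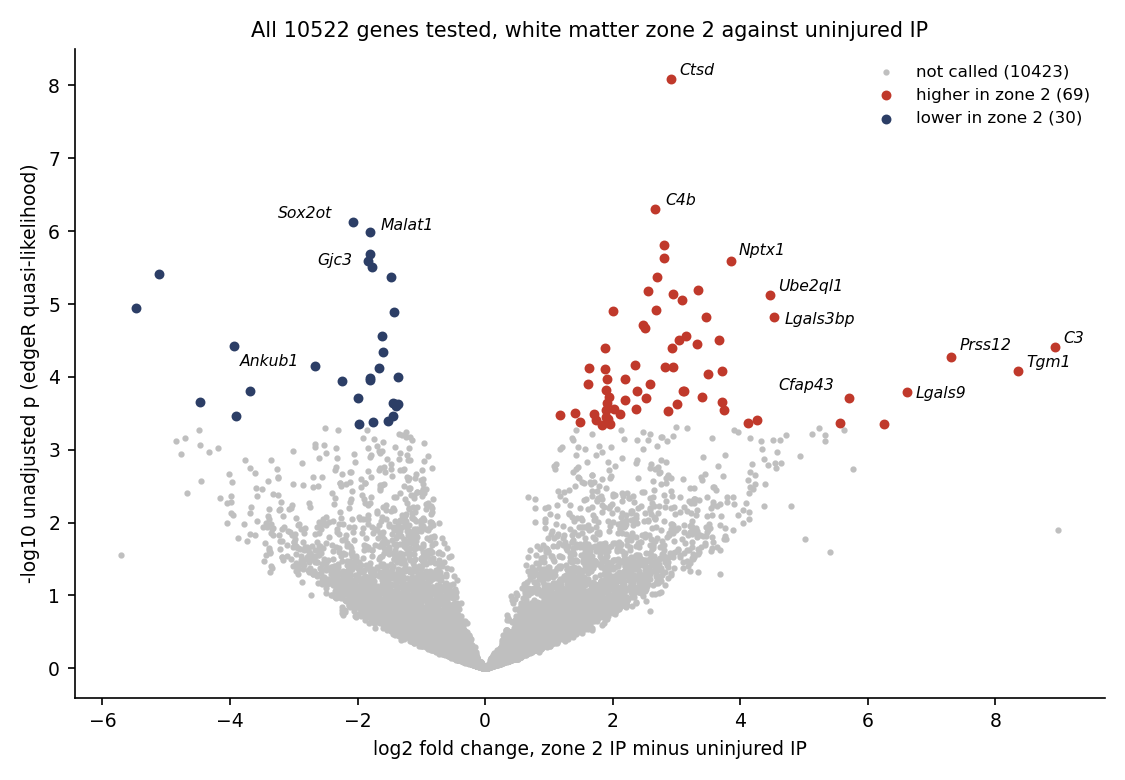
Log2 fold change (horizontal) against -log10 of the unadjusted p (vertical) for the 10522 genes tested, zone 2 IP minus uninjured IP, 5 libraries each; red points are the 69 genes called higher and blue points the 30 called lower. Ctsd has the lowest p, and C3 and Tgm1, listed at 0 in every uninjured library, lie farthest to the right among the calls.

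Ctsd, which encodes the lysosomal protease cathepsin D, changed with the lowest p of all genes. Its level in the 5 zone 2 libraries was 1437, 1321, 1114, 1540 and 1348 CPM, and in the 5 uninjured libraries 140, 222, 78.9, 226 and 235 CPM. Every zone 2 library was above every uninjured one, by a wide gap. The log2 fold change was 2.91 ± 0.32 (SE), with an adjusted p of 8.51e-05 in edgeR. The gene lies at chr7:142375911-142388038 on the minus strand (GRCm38), where the annotation also places a protein-coding read-through gene, Gm49369, on the same strand.

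The promoters of Ctsd, B2m and Ifitm3 are shown because their genes rose and because they hold the short motifs that bear on 2 of the gene groups below. The sequences are RefSeq's, from 250 bases before to 50 after the annotated start, 5′ to 3′ on the gene's strand (GRCm38.p6). Capitals mark CACGTG in Ctsd, the core bound by the lysosomal gene regulator TFEB and by other factors, and GAAANNGAAA, the core of the interferon-stimulated response element, in the others. They lie at chr7:142387778-142388077 (minus strand, Ctsd), chr2:122147437-122147736 (plus strand, B2m) and chr7:141010695-141010994 (minus strand, Ifitm3).
Ctsd: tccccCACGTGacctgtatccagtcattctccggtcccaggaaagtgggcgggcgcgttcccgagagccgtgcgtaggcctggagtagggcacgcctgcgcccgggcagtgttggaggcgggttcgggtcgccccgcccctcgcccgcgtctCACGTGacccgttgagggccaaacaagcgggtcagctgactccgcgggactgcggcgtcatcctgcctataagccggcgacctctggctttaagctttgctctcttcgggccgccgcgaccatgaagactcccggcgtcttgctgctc
B2m: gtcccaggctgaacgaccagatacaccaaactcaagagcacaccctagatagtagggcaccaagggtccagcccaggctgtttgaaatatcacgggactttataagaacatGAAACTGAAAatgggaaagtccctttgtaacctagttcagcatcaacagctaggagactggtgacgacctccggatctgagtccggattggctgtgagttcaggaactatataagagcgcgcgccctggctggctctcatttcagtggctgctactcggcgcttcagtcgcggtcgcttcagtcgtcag
Ifitm3: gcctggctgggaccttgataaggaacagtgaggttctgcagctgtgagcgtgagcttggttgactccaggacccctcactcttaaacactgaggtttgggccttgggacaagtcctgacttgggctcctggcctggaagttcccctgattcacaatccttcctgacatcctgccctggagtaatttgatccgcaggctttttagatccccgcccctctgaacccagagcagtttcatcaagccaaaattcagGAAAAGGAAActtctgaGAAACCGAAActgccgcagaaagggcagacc

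Both motifs were searched on both strands after the values were seen, and a match is a description only. CACGTG was in 3 of 51 promoters matched to the genes that rose (5.88%), in 2 of 20 of those that fell (10%), in 10.2% of the 7681 promoters of tested genes and in 7.24% of 27025 promoters in all. In the lysosome and phagocytosis list, 3 of 16 matched promoters held it, those of Ctsd, Ctsl and Lamp1. GAAANNGAAA was in 5 of 51 promoters of risen genes (9.8%: B2m, Ifitm3, Lgals9, Tgm1 and Unc80), in 1 of 20 of fallen genes (Gjc3) and in 2.68% of those of tested genes. In the interferon response list, 10 of 15 matched promoters held it.

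Beyond Ctsd, the lysosome and phagocytosis list had 1 more call. Of its 19 tested members, 2 rose and 0 fell, against 0.941% called over all genes, and the list's median log2 difference was 1.38. Ctsb, the lysosomal cysteine protease cathepsin B, was at 447, 746, 379, 935 and 233 CPM in zone 2 and at 164, 130, 133, 177 and 140 CPM in uninjured libraries. All zone 2 libraries were higher, with a spread that was wider in zone 2, and the log2 fold change was 1.88 ± 0.37 (edgeR adjusted p = 0.0122).

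Members of the list that did not pass included Grn, which encodes progranulin, with 176 to 259 CPM in zone 2 and 12.2 to 168 CPM in uninjured libraries (log2 difference 1.98 ± 0.57, edgeR adjusted p = 0.0947). Lamp1, a protein of the lysosomal membrane, had a log2 difference of -0.17 ± 0.30 (adjusted p = 0.862). The list as a whole was therefore uneven.

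Of 15 tested subunits of the vacuolar proton pump, which acidifies lysosomes and synaptic vesicles, 1 rose, against 0.656% called higher over all genes. The median log2 difference was 0.92, and this list was chosen after values were seen. Atp6v1g2, its called member and the G subunit known from neurons, was at 333, 503, 431, 219 and 183 CPM in zone 2 and at 48.5, 20.0, 64.7, 48.9 and 54.1 CPM in uninjured libraries. The groups did not overlap (log2 fold change 2.81 ± 0.43, edgeR adjusted p = 0.00303).

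A pair of genes for secreted proteins also rose. Lyz2, lysozyme of macrophages and neutrophils, was at 16.0, 39.4, 96.3, 108 and 26.8 CPM in zone 2 and at 0.460 to 9.64 CPM in uninjured libraries (log2 fold change 4.12 ± 0.99, edgeR adjusted p = 0.0475). Its call ended without zone 2 replicate 2, 3 or 4 or uninjured replicate 1, 3, 4 or 5, with adjusted p-values of 0.0829 to 0.111, and its fold change was 4.95 without uninjured replicate 2. Lgals3bp, a secreted galectin-binding glycoprotein, was at 272, 285, 36.9, 324 and 169 CPM in zone 2 and at 31.6, 3.71, 4.98, 4.57 and 0.410 CPM in uninjured libraries. Its groups did not overlap, though zone 2 replicate 3 was close to the highest uninjured library (log2 fold change 4.53 ± 0.81, edgeR adjusted p = 0.00668; 5.96 without uninjured replicate 1).

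Of 9 tested complement genes, 4 rose in zone 2 (C4b, C1qb, C1qc and C3) and 0 fell, against 0.656% called higher over all genes. The other 5 did not pass, 8 of 9 differences were positive, and the median log2 difference was 2.66. C4b, complement component 4 of the classical pathway, was at 405, 336, 410, 678 and 428 CPM in zone 2 and at 59.3, 57.9, 37.9, 106 and 94.8 CPM in uninjured libraries. The lowest zone 2 library was above the highest uninjured one (log2 fold change 2.66 ± 0.38, edgeR adjusted p = 0.00259). C4b has a near-identical neighbour, C4a, and how reads were divided between them is not stated.

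C1qb, a chain of the C1q molecule that starts the classical pathway, was at 235, 251, 209, 436 and 167 CPM in zone 2 and at 63.2, 23, 30.6, 39.3 and 28.5 CPM in uninjured libraries (log2 fold change 2.81 ± 0.44, edgeR adjusted p = 0.00303). C1qc, another C1q chain, was at 122, 183, 223, 238 and 83.2 CPM in zone 2 and at 7.10, 44.5, 5.36, 9.13 and 2.85 CPM in uninjured libraries (3.66 ± 0.70, adjusted p = 0.0109; 4.78 without uninjured replicate 2). Both genes separated the groups without overlap.

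C3, the central complement component that opsonises targets, had no count in any uninjured library. Its level in zone 2 was 5.32, 9.10, 26.4, 38.4 and 45.1 CPM, 267 counts in all. Set against an assumed floor of 3 counts over the uninjured group, it was 99.8-fold higher in zone 2 (edgeR adjusted p = 0.0122). That fold depends on the floor and does not cover the spread between libraries. With no uninjured count, C3 passed the filter on low counts through zone 2 alone. Cd59a, an inhibitor of the terminal complement complex, had a log2 difference of 1.12 (edgeR adjusted p = 0.626). C1qa, the remaining C1q chain, named after its values were seen, had 0.93 (adjusted p = 0.746).

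In the lists of antigen presentation and the interferon response, 1 gene each rose, against 0.656% called higher over all genes. B2m, the light chain of class I molecules, was at 244, 304, 292, 639 and 291 CPM in zone 2 and at 21.7, 43.0, 41.4, 80.4 and 85.1 CPM in uninjured libraries, without overlap (log2 fold change 2.70 ± 0.44, edgeR adjusted p = 0.00348). It was the 1 call among 5 tested members of its list, whose median was 2.70. The heavy chain genes H2-D1 (2.15 ± 0.73, adjusted p = 0.158) and H2-K1 (2.73 ± 0.89, adjusted p = 0.143) overlapped between groups, and their near-identical relatives make their counts uncertain. Cd74, the invariant chain of class II molecules, was at 2.80 to 57.6 CPM in zone 2 and at 0 to 8.16 CPM in uninjured libraries, and did not pass (edgeR adjusted p = 0.174).

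Of 12 tested interferon response genes, 1 rose and 0 fell, against 0.656% called higher over all genes, with a median log2 difference of 2.61. Ifitm3, a membrane protein that blocks virus entry, was at 105, 72.1, 99.3, 118 and 204 CPM in zone 2 and at 1.37, 19.3, 14.2, 10.5 and 0 CPM in uninjured libraries (3.74 ± 0.86, edgeR adjusted p = 0.0378). Its groups did not overlap, but its call ended without any 1 zone 2 library or uninjured replicate 1, 2 or 4, with adjusted p-values of 0.0540 to 0.0866. Ifit1, a sensor of viral RNA, was at 6.35 to 61.5 CPM in zone 2 and at 0 to 2.29 CPM in uninjured libraries (adjusted p = 0.0567), and Ifit3, its partner, at 6.48 to 76.3 and 0 to 3.83 CPM (adjusted p = 0.0786). Oasl2 had a log2 difference of 2.88 ± 1.07 (adjusted p = 0.204).

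Of 18 tested microglia and macrophage markers, 4 rose in zone 2 (C1qb, C1qc, Csf1r and Laptm5) and 0 fell, against 0.656% called higher over all genes. The other 14 did not pass; all 18 differences were positive and the median was 2.26. Their summed level was 1600, 1643, 1387, 2270 and 1307 CPM in zone 2 and 347, 410, 369, 604 and 284 CPM in uninjured libraries. The groups did not overlap, and none of the 19 markers was at 0 in every library of a group. The part that RNA of microglia has in these results was not tested.

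Csf1r, the growth factor receptor that microglia need to survive, was at 161, 187, 280, 236 and 201 CPM in zone 2 and at 28.4, 47.5, 38.3, 46.1 and 20.4 CPM in uninjured libraries (log2 fold change 2.56 ± 0.43, edgeR adjusted p = 0.00458). Mpeg1, a pore-forming protein of macrophages, was at 175, 96.6, 200, 175 and 181 CPM in zone 2 and at 22.7, 26.7, 9.58, 21.0 and 27.3 CPM in uninjured libraries (2.95 ± 0.50, adjusted p = 0.00466). Neither gene overlapped between the groups.

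Laptm5, a lysosomal protein from the microglia and macrophage list, was at 47.0, 160, 132, 314 and 104 CPM in zone 2. In uninjured libraries it was at 10.5, 6.68, 13.4, 58.4 and 14.3 CPM. Uninjured replicate 4 thus overlapped zone 2 (2.87 ± 0.66, edgeR adjusted p = 0.0385). Fyb, an adaptor of leukocyte signalling, was at 273, 134, 343, 126 and 40.2 CPM in zone 2 and at 51.3, 2.97, 19.9, 9.13 and 21.2 CPM in uninjured libraries, again with overlap (3.11 ± 0.68, adjusted p = 0.0276). The call of Laptm5 ended without zone 2 replicate 2, 3 or 4 or uninjured replicate 1, 2, 3 or 5 (adjusted p 0.0678 to 0.110), and that of Fyb without zone 2 replicate 1, 2 or 3 or uninjured replicate 2, 3, 4 or 5 (0.0526 to 0.0867). Their fold changes were 3.74 without uninjured replicate 4 and 3.75 without uninjured replicate 1.

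Csf2rb, the shared beta chain of cytokine receptors, had 261 counts in zone 2 and 8 in uninjured libraries (5.49 to 41.4 against 0 to 1.6 CPM; log2 fold change 5.57 ± 1.34, edgeR adjusted p = 0.0475), and its call ended when any library but uninjured replicate 1 was left out (0.0533 to 0.112; 7.20 without uninjured replicate 1). Cx3cr1, the fractalkine receptor of resident microglia, was at 74.8 to 231 CPM in zone 2 and at 25.9 to 83.8 CPM in uninjured libraries and did not pass (1.40 ± 0.49, adjusted p = 0.177). Of 9 tested genes of activated microglia, 1 rose (Ctsb), against 0.656% called higher over all genes, with a median of 1.10. This list holds 16 genes, of which 5 had no count in any uninjured library and 0 had none in all of zone 2. Spp1, 1 of these 5, was at 2.99 to 62.1 CPM in zone 2 and was not among the tested genes. Lpl, lipoprotein lipase, had 4.23 ± 1.22 (edgeR adjusted p = 0.0932) and Gpnmb, a glycoprotein of lipid-laden macrophages, 2.82 ± 1.25 (adjusted p = 0.305). None of 13 blood leukocyte markers had enough counts to be tested; they summed to 0 to 20.3 CPM in zone 2 and 0 to 34.2 CPM in uninjured libraries.

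**Figure D2:**
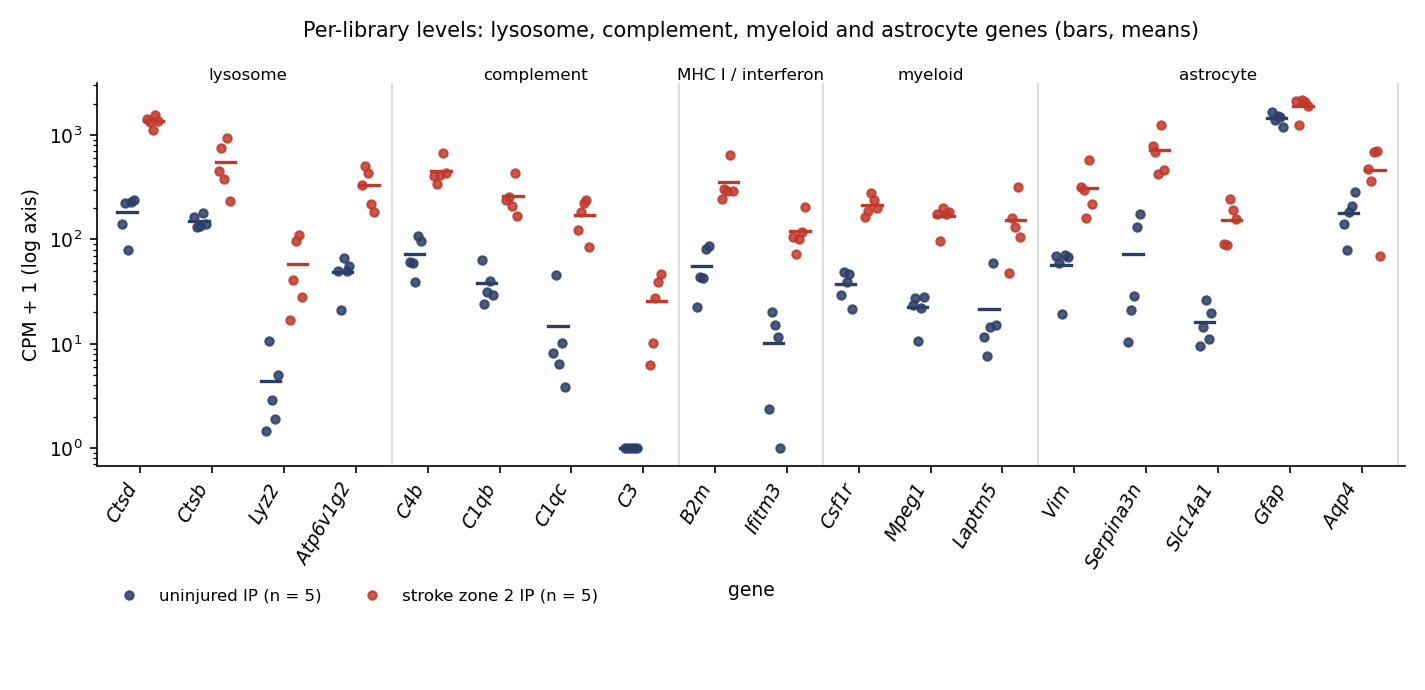
CPM + 1 on a log axis for 18 genes in the 5 uninjured IP (blue) and 5 stroke zone 2 IP libraries (red), with bars at the group means. Ctsd, C4b, C1qb, B2m, Csf1r and Mpeg1 separate the groups fully, C3 is at 0 CPM in all uninjured libraries, and the astrocyte genes Gfap and Aqp4 overlap.

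All 7 tested pan-reactive astrocyte genes had positive differences, where the median over all tested genes was -0.023. Of the 7, 4 had an unadjusted p under 0.05 in edgeR, against 1472 of all 10522 genes. Among the 7, 2 were called, against 0.656% called higher over all genes. Vim, the intermediate filament vimentin, was at 317, 295, 158, 574 and 217 CPM in zone 2 and at 67.8, 58.6, 18.4, 69.4 and 66.4 CPM in uninjured libraries, without overlap (log2 fold change 2.48 ± 0.45, edgeR adjusted p = 0.00813). Gfap, the classical astrocyte filament, was at 2134, 1242, 2165, 2091 and 1882 CPM in zone 2 and at 1644, 1379, 1512, 1502 and 1195 CPM in uninjured libraries. The groups overlapped through zone 2 replicate 2, and Gfap did not pass (0.40 ± 0.23, adjusted p = 0.471).

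Serpina3n, a secreted protease inhibitor of reactive astrocytes, was at 777, 693, 423, 1249 and 464 CPM in zone 2 and at 9.38, 20.0, 27.96, 131 and 173 CPM in uninjured libraries. Uninjured replicates 4 and 5 were several times above the other uninjured libraries and still below zone 2 (log2 fold change 3.32 ± 0.63, edgeR adjusted p = 0.0122; 3.93 without uninjured replicate 5). Serpina3n belongs to a cluster of similar genes, so reads may be divided among them. With Vim it made up the 2 calls among 7 tested pan-reactive astrocyte genes, whose median was 2.48; Cd44 (3.39 ± 0.98, adjusted p = 0.0953) and S1pr3 (3.65 ± 1.02, adjusted p = 0.0834) did not pass.

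Tgm1, a transglutaminase listed among A2-type astrocyte genes, had 0 counts in the uninjured group and 236 in zone 2. Its zone 2 levels were 14.2, 27.1, 4.49, 31.9 and 5.64 CPM. Against an assumed floor of 3 counts over the uninjured group, Tgm1 was 88.2-fold higher (edgeR adjusted p = 0.0193). Like C3, it passed the filter through zone 2 alone, and its fold depends on the floor. It was the 1 tested member of its 12-gene list, and its call ended without zone 2 replicate 2 or uninjured replicate 1, 2 or 4 (adjusted p 0.0501 to 0.0618). Of 5 tested A1-type genes, none passed in edgeR (2 had an unadjusted p under 0.05, against 1472 of all 10522 genes). The median log2 difference of the A1-type genes was 1.73. Slc14a1, the urea transporter found on astrocytes, was at 89.6, 88.2, 241, 190 and 155 CPM in zone 2 and at 8.47, 13.4, 25.3, 10.1 and 18.7 CPM in uninjured libraries, without overlap (3.33 ± 0.56, adjusted p = 0.00458).

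None of 20 astrocyte markers passed in edgeR, though 19 differences were positive and their median was 0.68. Against 1472 of all 10522 genes, 6 of these 20 had an unadjusted p under 0.05. Their summed level was 14240 to 19740 CPM in zone 2 and 8903 to 15630 CPM in uninjured libraries. Slc1a2, the main glutamate transporter, was at 6021, 5641, 6081, 6681 and 6170 CPM in zone 2 and at 2677, 3433, 3872, 4324 and 4845 CPM in uninjured libraries. The groups did not overlap, yet the log2 difference of 0.68 ± 0.21 did not pass (edgeR adjusted p = 0.126).

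Aqp4, the water channel of astrocyte endfeet, was at 470, 365, 692, 708 and 68.4 CPM in zone 2 and at 140, 77.9, 184, 209 and 285 CPM in uninjured libraries. Zone 2 replicate 5 was below all uninjured libraries and the other 4 above them (1.36 ± 0.47, edgeR adjusted p = 0.171). Slc1a3, a second glutamate transporter (0.72 ± 0.34, adjusted p = 0.344), Apoe, the lipid carrier (0.63 ± 0.35, adjusted p = 0.447), Clu, the chaperone clusterin (0.74 ± 0.34, adjusted p = 0.328), Aldh1l1, a folate enzyme (0.18 ± 0.70, adjusted p = 0.944), and Stat3, the factor downstream of gp130 (0.07 ± 0.61, adjusted p = 0.977), did not pass either.

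Of 18 tested neuron markers, 6 rose (Snap25, Syt1, Stmn2, Map2, Syp and Thy1) and 0 fell, against 0.656% called higher over all genes, with a median log2 difference of 1.62. Their summed level was 4874, 8770, 11000, 3264 and 7947 CPM in zone 2 and 1612, 1814, 3230, 1862 and 2550 CPM in uninjured libraries. Zone 2 replicate 4 was just above the highest uninjured library, and the other 4 were well above it. None of the 18 markers was at 0 in every library of a group, and the part that RNA of neurons has in these rises was not tested.

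Snap25, a fusion protein of nerve terminals, was at 855, 2517, 2869, 687 and 1482 CPM in zone 2 and at 320, 427, 429, 345 and 568 CPM in uninjured libraries (log2 fold change 2.01 ± 0.36, edgeR adjusted p = 0.00616). Thy1, a surface protein of projection neurons, was at 379, 247, 342, 89.0 and 710 CPM in zone 2 and at 19.0, 20.0, 76.6, 32.4 and 58.2 CPM in uninjured libraries (3.09 ± 0.53, adjusted p = 0.00509). Uchl1, an abundant neuronal ubiquitin hydrolase, was at 62.1, 87.0, 143, 109 and 83.2 CPM in zone 2 and at 11.7, 6.68, 8.43, 8.22 and 8.14 CPM in uninjured libraries (3.47 ± 0.62, adjusted p = 0.00668). All 3 genes separated the groups. The annotation places the antisense gene Uchl1os over Uchl1.

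Nptx1, a pentraxin that clusters glutamate receptors, was at 93.1, 255, 268, 89.3 and 72.6 CPM in zone 2 and at 13.96, 6.68, 17.6, 8.22 and 6.92 CPM in uninjured libraries (3.85 ± 0.61, edgeR adjusted p = 0.00303). Syp, the vesicle protein synaptophysin, was at 355, 404, 846, 255 and 389 CPM in zone 2 and at 89.0, 77.2, 162, 33.3 and 32.6 CPM in uninjured libraries (2.51 ± 0.46, adjusted p = 0.00849). Its antisense neighbour Gm14703 was also called higher (3.04); whether the counting used strand is not stated, so reads from the 2 cannot be told apart.

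Of 22 synaptic vesicle and release genes, 9 rose and 0 fell, against 0.656% called higher over all genes, and the median was 1.6. The list was chosen after values were seen, so its count of calls is a description only. Of the 9, 3 (Snap25, Syp and Syt1) are also among the neuron markers. Dnm1, the dynamin of vesicle recycling, was at 255, 482, 634, 229 and 440 CPM in zone 2 and at 82.2, 22.3, 62.4, 26.5 and 123 CPM in uninjured libraries (2.68 ± 0.47, edgeR adjusted p = 0.00616). Syngr1, a vesicle membrane protein (2.94 ± 0.60, adjusted p = 0.0184), and Sv2b, a vesicle glycoprotein (2.82 ± 0.58, adjusted p = 0.0184), also rose, as did Syt1, the calcium sensor of release (1.89 ± 0.44, adjusted p = 0.0378). Leaving out uninjured replicate 1, uninjured replicate 2 or zone 2 replicate 2 ended the calls of Syngr1, Sv2b and Syt1; zone 2 replicate 3 and uninjured replicate 4 did so for Sv2b and Syt1, and zone 2 replicate 5 and uninjured replicate 5 for Syt1 (adjusted p 0.0580 to 0.137).

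Dlg4, the postsynaptic scaffold PSD-95, was at 301, 218, 237, 100.0 and 1315 CPM in zone 2 and at 43.0, 102, 62.8, 45.2 and 32.6 CPM in uninjured libraries. Zone 2 replicate 5 stood far above the others, and the log2 fold change was 2.93 ± 0.57 with it (edgeR adjusted p = 0.0122) and 1.91 without it (adjusted p = 0.0441). Map2, of dendritic microtubules (1.41 ± 0.33, adjusted p = 0.0401), and Stmn2, of growing axons (3.72 ± 0.84, adjusted p = 0.0336), rose as well. Their calls each ended without uninjured replicate 1, 2, 4 or 5 or zone 2 replicate 2 or 3, and that of Map2 also without zone 2 replicate 1 or 5 (adjusted p 0.0598 to 0.110). Camk2a, the calcium-dependent kinase abundant in dendrites, was at 461 to 1839 CPM in zone 2 and at 231 to 776 CPM in uninjured libraries and did not pass (1.17 ± 0.37, adjusted p = 0.125).

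Several of the largest rises lay outside these lists. Ube2ql1, a ubiquitin-conjugating enzyme, was at 219, 41.5, 56.9, 41.0 and 179 CPM in zone 2 and at 6.64, 2.97, 4.6, 1.83 and 7.73 CPM in uninjured libraries (4.46 ± 0.76, edgeR adjusted p = 0.00466). Ankrd34a, which encodes an ankyrin repeat protein, was at 31.7 to 69.8 CPM in zone 2 and at 0 to 6.68 CPM in uninjured libraries (4.26 ± 1.01, adjusted p = 0.0458), and its call ended when any library but zone 2 replicate 5 was left out (0.0571 to 0.104; 4.89 without uninjured replicate 2).

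Prss12, the neuronal protease neurotrypsin, was at 13.3, 10.3, 11.97, 8.05 and 666 CPM in zone 2 and at 0.460, 0, 2.30, 0 and 1.22 CPM in uninjured libraries (log2 fold change 7.31 ± 1.43, edgeR adjusted p = 0.0150). Its size rests on zone 2 replicate 5: without it the fold change was 3.64 (adjusted p = 0.209), and the call also ended without uninjured replicate 1, 2 or 4 (from 0.0585), with 8.09 without uninjured replicate 3. The same library carried Lgals9, a galectin, at 255 CPM against 4.99 to 20.5 CPM in the other zone 2 libraries and 0 to 2.23 CPM in uninjured ones (6.61 ± 1.45, adjusted p = 0.0276). Without zone 2 replicate 5 the value of Lgals9 was 3.96 (adjusted p = 0.197); its call also ended without uninjured replicate 1, 4 or 5 (from 0.0659), and it was 7.58 without uninjured replicate 2.

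Cfap43, a protein of motile cilia, was at 65.6, 41.8, 43.4, 3.66 and 62.8 CPM in zone 2 and at 2.29, 0, 0, 0 and 1.22 CPM in uninjured libraries (5.70 ± 1.27, edgeR adjusted p = 0.0312). Its call ended without zone 2 replicate 1 or 3 or uninjured replicate 2, 3, 4 or 5 (0.0537 to 0.0803; 6.80 without uninjured replicate 1). Of 7 ependymal markers, 3 were tested and none passed in edgeR. An unadjusted p under 0.05 was reached by 1 of the 3, against 1472 of all 10522 genes. The summed level of the 7 was 193, 843, 255, 89.3 and 3610 CPM in zone 2 and 6.41 to 59.4 CPM in uninjured libraries. Foxj1, the regulator of motile cilia, was at 12.7 to 93.8 CPM in zone 2 and at 2.29 to 26.5 CPM in uninjured libraries (2.04 ± 0.81, adjusted p = 0.241). Most of the highest sums was Ttr, transthyretin, a transcript of the choroid plexus that was not among the tested markers: it was at 0.887, 673, 148, 0 and 3550 CPM in zone 2 and at 0.457 to 2.23 CPM in uninjured libraries. Without Ttr the other 6 markers summed to 192, 170.1, 107, 89.3 and 59.95 CPM in zone 2 and to 5.49 to 58.9 CPM in uninjured libraries, so that zone 2 replicate 5 was then the lowest of its group and just above the highest uninjured library. The part of ependymal or choroid plexus RNA in the results was not tested.

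**Figure D3:**
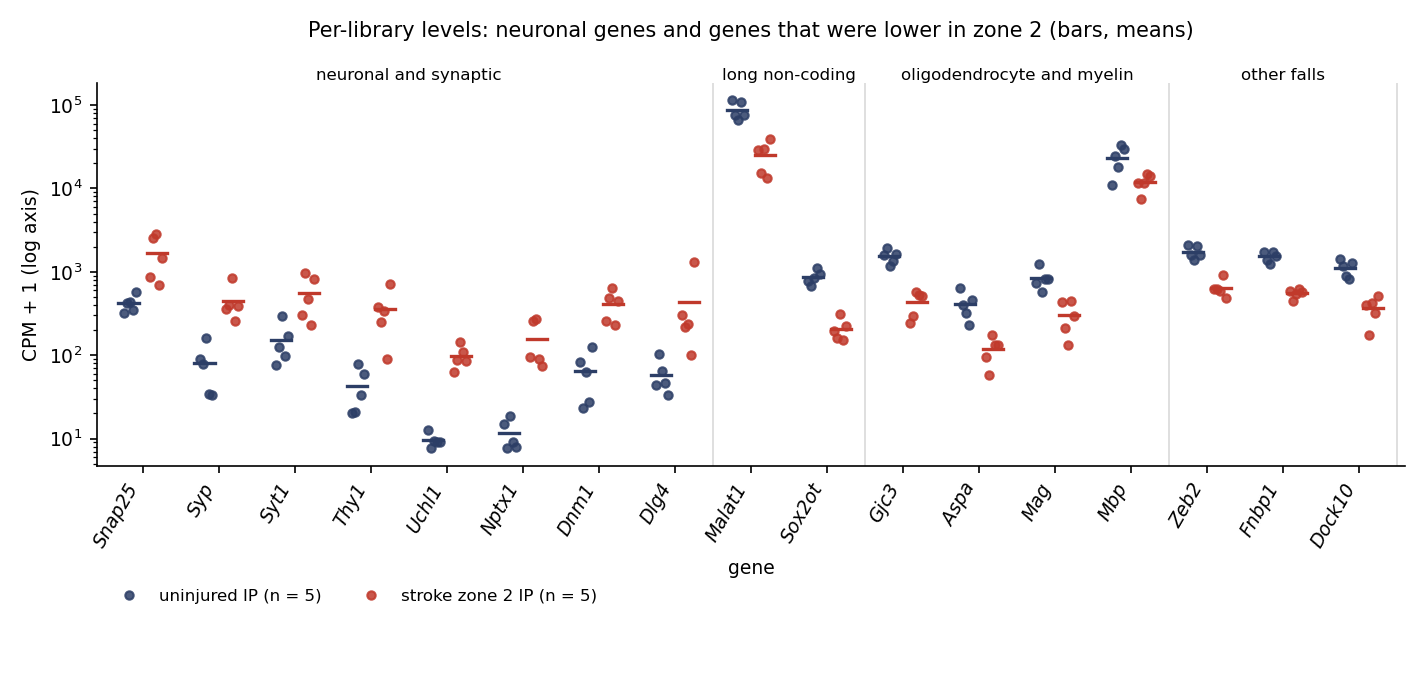
CPM + 1 on a log axis for 8 neuronal and synaptic genes and 9 other genes in the 5 uninjured IP (blue) and 5 stroke zone 2 IP libraries (red), with bars at the group means. The neuronal genes are higher in zone 2, with the widest spread for Dlg4, while Malat1, Sox2ot, Gjc3, Zeb2, Fnbp1 and Dock10 are lower without overlap, and Mbp overlaps.

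Malat1, an abundant nuclear long non-coding RNA, was lower in zone 2. It was at 28926, 15432, 29963, 13414 and 39098 CPM in zone 2 and at 114901, 75180, 66392, 107443 and 76533 CPM in uninjured libraries. Every zone 2 library was below every uninjured one (log2 fold change -1.80 ± 0.27, edgeR adjusted p = 0.00270). Malat1 held 1.64 to 3.32% of the remaining counts in zone 2 and 6.41 to 10.15% in uninjured libraries. In input it held 5.04 to 5.68% after stroke (zones 1 to 3 as one area) and 5.71 to 7.5% in uninjured tissue. Gm37376 is annotated within Malat1 on the opposite strand and followed it (-1.80, adjusted p = 0.00303), so the 2 are not independent calls.

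Sox2ot, the long RNA that spans the Sox2 gene, was at 192, 162, 312, 150 and 223 CPM in zone 2 and at 765, 674, 847, 1123 and 944 CPM in uninjured libraries, without overlap (-2.07 ± 0.30, edgeR adjusted p = 0.00263). Gm42692, annotated inside Sox2ot on the same strand, was at 0 to 8.87 CPM in zone 2 and at 53.4 to 425 CPM in uninjured libraries (-5.11, adjusted p = 0.00348; -4.30 without uninjured replicate 1). Of 11 long non-coding RNAs tested in a list chosen after values were seen, 2 fell (Malat1 and Sox2ot) and 0 rose, with a median of 0.29. Over all genes 0.285% were called lower. Neat1, of nuclear paraspeckles, had -1.20 ± 0.43 (edgeR adjusted p = 0.187), and Meg3, an imprinted neuronal RNA, had 1.38 ± 0.35 (adjusted p = 0.0564).

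Oligodendrocyte genes made up a part of the falls. Gjc3, the connexin 29 of oligodendrocytes, was at 239, 297, 575, 521 and 516 CPM in zone 2 and at 1595, 1928, 1185, 1341 and 1636 CPM in uninjured libraries. The groups did not overlap (log2 fold change -1.84 ± 0.29, edgeR adjusted p = 0.00303). Of 18 oligodendrocyte and myelin markers, 2 fell (Mag and Aspa), against 0.285% called lower over all genes, and 0 rose. The median was -0.81, with 16 of 18 differences below 0. Against 1472 of all 10522 genes, 11 of these 18 had an unadjusted p under 0.05. Their summed level was 31470, 21320, 27860, 45960 and 35380 CPM in zone 2 and 39600, 60640, 45650, 70930 and 63480 CPM in uninjured libraries, so that zone 2 replicate 4 overlapped the uninjured range.

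Aspa, the enzyme that splits N-acetylaspartate in oligodendrocytes, was at 93.1, 56.5, 173, 130 and 132 CPM in zone 2 and at 632, 402, 318, 229 and 457 CPM in uninjured libraries (-1.80 ± 0.38, edgeR adjusted p = 0.0221). Mag, an adhesion protein of the inner myelin layer, was at 431, 212, 133, 450 and 296 CPM in zone 2 and at 735, 1225, 566, 808 and 822 CPM in uninjured libraries (-1.45 ± 0.34, adjusted p = 0.0423; -1.39 and adjusted p = 0.0531 with RLE scaling). Neither overlapped between groups, but the call of Aspa ended without zone 2 replicate 1 or 2 or uninjured replicate 1, 2 or 5, and that of Mag without zone 2 replicate 2, 3 or 5 or uninjured replicate 1, 2, 4 or 5 (adjusted p 0.0532 to 0.125).

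The other 16 of the 18 did not pass. Mbp, myelin basic protein, was at 11698, 7509, 11610, 14757 and 14008 CPM in zone 2 and at 10992, 24444, 18109, 32988 and 29599 CPM in uninjured libraries, overlapping through uninjured replicate 1 (-0.96 ± 0.26, edgeR adjusted p = 0.0763). Mobp, of the major dense line, had -0.90 ± 0.24 (adjusted p = 0.0697) and Opalin -1.67 ± 0.44 (adjusted p = 0.0666). Of 12 precursor markers none passed in edgeR. An unadjusted p under 0.05 was reached by 2 of the 12, against 1472 of all 10522 genes. The precursor list had a median of -0.47, and Bcas1, of newly forming oligodendrocytes, was at -1.21 ± 0.33 (edgeR adjusted p = 0.0751).

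Among the other falls, Fnbp1, a membrane-bending adaptor, was at 590, 443, 534, 616 and 569 CPM in zone 2 and at 1747, 1402, 1238, 1739 and 1525 CPM in uninjured libraries (-1.48 ± 0.24, edgeR adjusted p = 0.00348). Zeb2, a zinc finger factor of oligodendrocyte maturation, was at 615, 618, 591, 924 and 480 CPM in zone 2 and at 2080, 1582, 1399, 2046 and 1598 CPM in uninjured libraries (-1.43 ± 0.25, adjusted p = 0.00616). Dock10, a guanine exchange factor, was at 394, 174, 418, 318 and 513 CPM in zone 2 and at 1418, 1165, 894, 828 and 1265 CPM in uninjured libraries (-1.62 ± 0.30, adjusted p = 0.0104). These 3 genes and Usp54 (-1.60 ± 0.31, adjusted p = 0.0133) separated the groups, which for Dock10 and Usp54 was a condition of being named. The calls of these genes held without each library in turn.

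The largest falls also held Ankub1 (-2.67 ± 0.54, edgeR adjusted p = 0.0184), the clock gene Per3 (-2.25 ± 0.48, adjusted p = 0.0224), the muscle-atrophy ubiquitin ligase Fbxo32 (-2.0 ± 0.45, adjusted p = 0.0312) and Cdc37l1 (-1.97 ± 0.48, adjusted p = 0.0477). They also held Plxnb3, a semaphorin receptor (-1.75 ± 0.42, adjusted p = 0.0469), and Pnn, a splicing-related nuclear protein (-1.66 ± 0.34, adjusted p = 0.0184). Plekhb1, a pleckstrin-homology protein (-1.37 ± 0.29, adjusted p = 0.0221), and Picalm, of clathrin-coated pits (-1.44 ± 0.32, adjusted p = 0.0336), fell too. The call of Pnn ended without uninjured replicate 1 (adjusted p = 0.0636), that of Per3 without zone 2 replicate 1 or uninjured replicate 2, and that of Ankub1 without zone 2 replicate 2 or uninjured replicate 1 or 2 (0.0528 to 0.102). The calls of Fbxo32, Cdc37l1, Picalm, Plekhb1 and Plxnb3 were each lost without 5 to 9 of the 10 libraries, uninjured replicates 2, 4 and 5 and zone 2 replicates 2 and 3 among them for all (0.0565 to 0.136). With another scaling (RLE), Plxnb3 and Cdc37l1 also lost the call (-1.66, adjusted p = 0.0640 and -1.89, adjusted p = 0.0561).

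Most other gene lists gave no call at a level of 0.941% over all genes. No member passed in edgeR of 17 tested genes of cholesterol synthesis (median -0.23), 6 chemokines and cytokines (-0.01), 9 genes of gp130 and STAT3 signalling (0.07), 14 of hypoxia and glycolysis (0.77), 14 metallothioneins and NRF2 targets (0.46), 15 chaperones (0.38), 9 of the cell cycle (-0.13), 13 proteoglycans and matrix glycoproteins (-0.03), 9 endothelial markers (-0.01) and 9 mural markers (0.25). An unadjusted p under 0.05 in edgeR was reached by 1472 of all 10522 genes. It was reached by 4 of 14 hypoxia and glycolysis genes, 4 of 13 in the proteoglycan list and 2 of 14 metallothioneins and NRF2 targets. The cell cycle and mural lists had 1 of 9 each, and cholesterol synthesis, chemokines, STAT3 signalling, chaperones and endothelial markers had 0. Lipid transport and storage (median 0.74) and glutamate, potassium and water handling (0.68) gave no call either. In each of them, 5 of 15 tested members had an unadjusted p under 0.05. Hmgcs1, an early enzyme of cholesterol synthesis, had -0.44 ± 0.45 (edgeR adjusted p = 0.721).

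**Figure D4:**
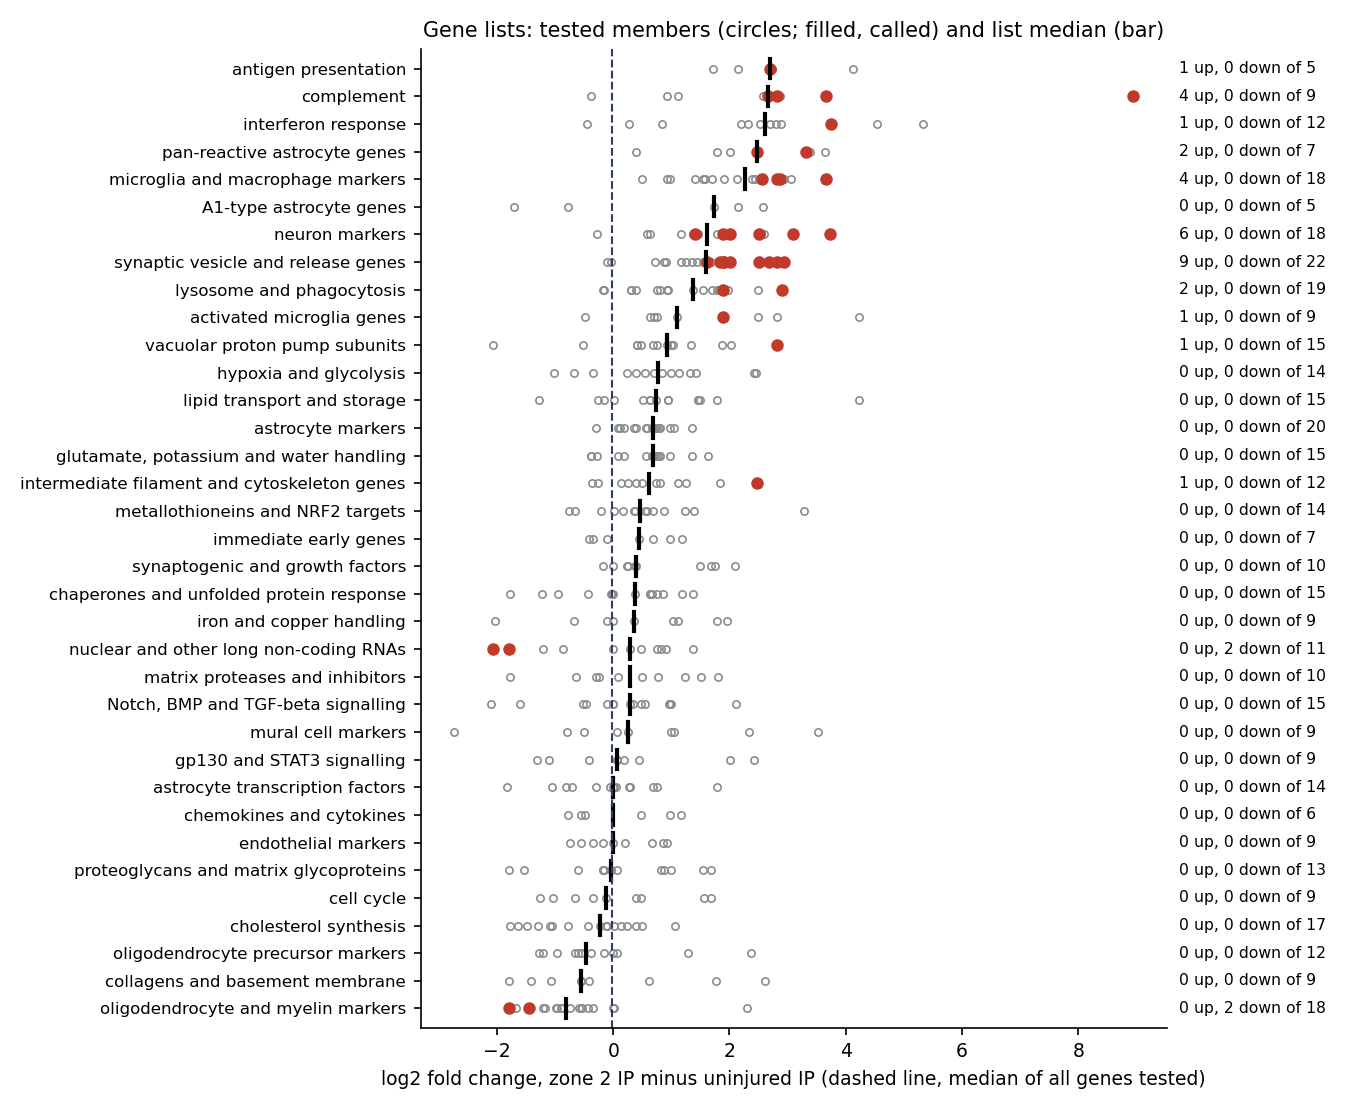
Log2 fold change, zone 2 IP minus uninjured IP, of each tested member (circles; filled where called) of 35 gene lists with at least 5 tested members; black bars are list medians and the dashed line is the median over all genes tested. Antigen presentation, complement, interferon response, pan-reactive astrocyte, microglia and neuron lists have medians between 1.62 and 2.70, and the oligodendrocyte and myelin list has the lowest, at -0.81.

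Against the neighbouring zones, zone 2 showed no difference that passed. Zone 2 IP was tested against zone 1 IP (5 libraries) over 10290 genes, of which 0 passed (0%) in edgeR, 641 had an unadjusted p under 0.05 and the lowest adjusted p was 0.789; DESeq2 and limma voom called 0 as well. For Ctsd, zone 2 minus zone 1 was -2.15 ± 0.62 (adjusted p = 0.789), and for Malat1 -0.38 ± 0.48 (adjusted p = 0.976). Against zone 3 IP (5 libraries), 0 of 9324 genes passed (0%) in edgeR. There, 987 genes had an unadjusted p under 0.05; DESeq2 gave 59 calls and limma voom gave 0. Zone 1 replicate 1 had 9290 detected genes, zone 1 replicate 5 had 943010 remaining counts and zone 3 replicate 1 had 8215 detected genes, all below the zone 2 libraries. The 3 comparisons share the zone 2 libraries.

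The zone 2 response differed between white matter and cortex for myelin, neuronal and some astrocyte genes. An interaction contrast over 4 IP groups of 5 libraries each, with the same white matter libraries as above and cortex stroke zone 2 against uninjured cortex, called 376 of 13673 genes (2.75%) in edgeR, 232 with the higher white matter response (1.70%) and 144 with the lower (1.05%). Without any 1 of the 5 cortex zone 2 libraries the count of calls was 180 to 247, without cortex uninjured replicate 3, 4 or 5 it was 230, 248 or 217, and without zone 2 replicate 4 or 5 or uninjured replicate 3 it was 613, 571 or 622. All values in the next 3 paragraphs come from that fit, as log2 differences with adjusted p-values of the difference between regions.

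Gfap had a response of 0.41 ± 0.26 in white matter and of 3.26 ± 0.28 in cortex, a difference of -2.85 ± 0.37 (edgeR adjusted p = 0.000164). Its mean level in uninjured libraries was 1580 CPM in white matter (1319 to 1785) and 90.5 CPM in cortex (48.3 to 123), and in zone 2 it was 2097 and 863 CPM. The uninjured levels of the regions did not overlap. Vim rose by 2.5 ± 0.43 in white matter and 4.89 ± 0.49 in cortex (difference -2.39 ± 0.60, adjusted p = 0.0281), and C4b by 2.69 ± 0.43 and 5.07 ± 0.53 (-2.38 ± 0.64, adjusted p = 0.0402). The difference for Vim was no longer called without cortex zone 2 replicate 2 or 4 or cortex uninjured replicate 1, 2 or 5 (0.0516 to 0.0794). That for C4b was lost without zone 2 replicate 2 or 3, uninjured replicate 4 or 5, cortex zone 2 replicate 1, 2, 3 or 4 or cortex uninjured replicate 3, 4 or 5 (0.0510 to 0.0939). In limma voom both were lost (Vim 0.267, C4b 0.143).

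Of 18 oligodendrocyte and myelin markers, 13 had the lower response in white matter, against 1.05% of all genes, and 0 the higher, with a median difference of -1.69. Mag had -1.44 ± 0.33 in white matter and 1.51 ± 0.34 in cortex (difference -2.94 ± 0.47, edgeR adjusted p = 0.00111). Gjc3 had -1.82 ± 0.27 and 0.63 ± 0.26 (-2.44 ± 0.37, adjusted p = 0.000722), Mbp -0.94 ± 0.23 and 0.64 ± 0.23 (-1.58 ± 0.33, adjusted p = 0.00927) and Aspa -1.79 ± 0.36 and 0.44 ± 0.37 (-2.23 ± 0.51, adjusted p = 0.0175). Malat1 (-1.78 ± 0.27 against -0.23 ± 0.26, adjusted p = 0.0220) and Sox2ot (-2.05 ± 0.25 against 0.24 ± 0.25, adjusted p = 0.000722) also differed. The Malat1 difference was lost without cortex zone 2 replicate 2 (adjusted p = 0.0518) and with no filter on low counts (0.0672), and those of Mbp and Aspa were lost in limma voom (0.381 and 0.115). The mean of Malat1 in uninjured libraries was 95860 CPM in white matter and 25450 CPM in cortex.

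Of 18 neuron markers, 8 had the higher response in white matter, against 1.70% of all genes, and 0 the lower, with a median difference of 1.72. Uchl1 had 3.49 ± 0.35 in white matter and -0.16 ± 0.31 in cortex (difference 3.64 ± 0.46, edgeR adjusted p = 0.000156), with means of 9.43 CPM in uninjured white matter and 112 CPM in uninjured cortex. Snap25 had 2.03 ± 0.31 and -0.14 ± 0.30 (2.16 ± 0.43, adjusted p = 0.00627), from means of 458 and 5524 CPM. Thy1 (2.96 ± 0.54, adjusted p = 0.00376), Nptx1 (3.64 ± 0.53, adjusted p = 0.000566) and Atp6v1g2 (3.06 ± 0.43, adjusted p = 0.000262) differed likewise. Ctsd (0.57 ± 0.36, adjusted p = 0.444), C1qb (0.13 ± 0.49, adjusted p = 0.937), Csf1r (0.95 ± 0.46, adjusted p = 0.297) and Serpina3n (-0.57 ± 0.83, adjusted p = 0.797) did not pass, and none of 18 microglia markers or 20 lysosome and phagocytosis genes did in edgeR.

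**Figure D5:**
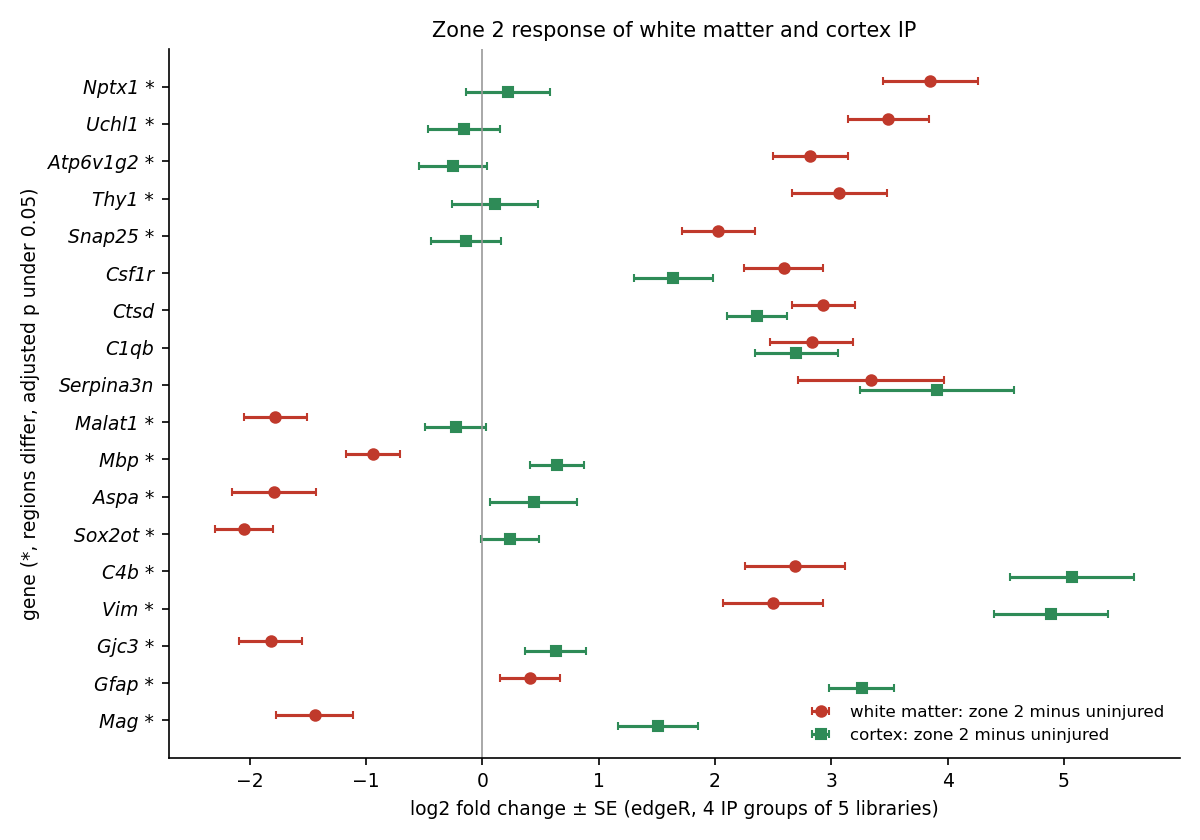
Log2 fold change, zone 2 minus uninjured IP, in white matter (red circles) and cortex (green squares) with SE bars, for 18 genes in one edgeR fit of 4 groups of 5 libraries; an asterisk marks genes whose response differs between regions at an adjusted p under 0.05. Neuronal genes respond in white matter and lie near 0 in cortex, myelin genes are below 0 in white matter and above 0 in cortex, and Ctsd, C1qb, Csf1r and Serpina3n lie above 0 in both.

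In input RNA, which is the lysate before the pull-down, the same white matter contrast could be drawn only for zones 1 to 3 taken as one area (3 libraries) against uninjured tissue (5 libraries). Of 14552 genes, 8 rose (0.055%) and 0 fell in edgeR, with 1400 at an unadjusted p under 0.05. Ctsd was at 1964, 1133 and 992 CPM after stroke and at 140, 188, 118, 119 and 60.03 CPM in uninjured input (3.45 ± 0.32, adjusted p = 0.000170). C1qc (2.93 ± 0.42, adjusted p = 0.0104), Fyb (3.15 ± 0.44, adjusted p = 0.0104), Vim (2.58 ± 0.36, adjusted p = 0.0104), C1qb (2.76 ± 0.42, adjusted p = 0.0178), Mpeg1 (3.52 ± 0.55, adjusted p = 0.0201) and B2m (2.12 ± 0.34, adjusted p = 0.0266) rose too, as did Dhrs3, a retinal reductase (5.55 ± 0.80, adjusted p = 0.0104). The count of calls was 1 without stroke input replicate 1, 2 without uninjured input replicate 2 and 5 without uninjured input replicate 5. Without stroke input replicate 1 all calls but that of Ctsd were lost (adjusted p 0.0713 to 0.219), and the values of C1qb, Mpeg1 and Dhrs3 were then 1.9, 2.4 and 4.45. Without uninjured input replicate 2 the calls of Vim, Fyb, Dhrs3, C1qb, Mpeg1 and B2m were lost, and the last 3 were also lost without uninjured input replicate 3 or 5, C1qb and B2m without replicate 1, and C1qb and Mpeg1 without replicate 4 (from 0.0547).

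Some genes called in the zone 2 IP did not pass in input. C4b had 2.32 ± 0.47 (edgeR adjusted p = 0.106), Serpina3n 2.95 ± 0.62 (adjusted p = 0.113), Csf1r 1.75 ± 0.39 (adjusted p = 0.119) and Snap25 0.99 ± 0.32 (adjusted p = 0.304). Malat1 was at 65821, 54637 and 52455 CPM after stroke and at 56810 to 74226 CPM in uninjured input, so that the groups overlapped (-0.25 ± 0.11, adjusted p = 0.473). The difference between the IP and the input response was not tested, since the stroke samples cover different areas.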

How the data were processed

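The deposited table holds raw counts per gene for 82 libraries, made by the authors. No aligner, counter or strand setting is named in the sources used here. The submitters' processing notes name the builds GRCm38 and mm10. Per the labels' protocols, tissue was fixed lightly, laser-captured and lysed, ribosomes were immunoprecipitated, and RNA was amplified and sequenced in read pairs. Of 48795 gene IDs, 359 were set aside: all genes annotated as ribosomal RNA, and by name mt-Rnr1, mt-Rnr2, Gm42418, CT010467.1, Gm23935 and Lars2. Genes were kept by filterByExpr (minimum count 10, total 15), scaled by TMM and tested with edgeR 4.0.16 (robust quasi-likelihood, R 4.3.3) with Benjamini-Hochberg adjustment at 0.05, fitting only the groups compared. The SE is the log2 fold change divided by the root of F. Alternatives used DESeq2 1.42.0 and limma 3.58.1, other scalings, filters and sets of libraries. The procedure was tested on simulated data. Members and gene lists were chosen with earlier results of these data known. Genes named by rule were the 12 largest rises and falls without overlap (no predicted genes), up to 4 members per list with the lowest p, the most abundant member not called, and 20 reference genes. Some other named genes met none of these rules. Mpeg1, Fyb, Slc14a1, Uchl1, Dlg4, Syt1, Map2, Zeb2, Fnbp1, Plekhb1 and Picalm were picked from the called genes with their values seen. So were the called members named from lists chosen after values were seen. Some items are not reported here.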

Additional observations from a re-analysis of the deposited data

Results flagged for a closer look

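Among 196 groups of 5 values screened on the log2 scale, 11 held a library far from the other 4; chance alone gives such a library in about 1 group in 20. In zone 2 these were B2m in replicate 4 (639 CPM, highest), Mpeg1 in replicate 2 (96.6 CPM, lowest), Cd44 in replicate 1 (113 CPM, highest) and Gfap in replicate 2 (1242 CPM, lowest). They were also Aqp4 in replicate 5 (68.4 CPM, lowest), Prss12 in replicate 5 (666 CPM, highest) and Cfap43 in replicate 4 (3.66 CPM, lowest). In uninjured tissue they were Atp6v1g2 in replicate 2 (20.0 CPM, lowest), Mpeg1 in replicate 3 (9.58 CPM, lowest), Vim in replicate 3 (18.4 CPM, lowest) and the summed blood leukocyte markers in replicate 5 (34.19 CPM, highest).

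The zone 2 response differed between white matter and cortex for 14 of the named genes, by the interaction contrast in edgeR with 5 libraries in each of 4 groups. As white matter minus cortex on the log2 scale, the differences were -2.85 for Gfap, -2.39 for Vim, -2.38 for C4b, -1.55 for Malat1, -2.29 for Sox2ot, -2.44 for Gjc3, -2.94 for Mag, -2.23 for Aspa and -1.58 for Mbp. They were 2.16 for Snap25, 2.96 for Thy1, 3.64 for Uchl1, 3.64 for Nptx1 and 3.06 for Atp6v1g2.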

How the results depend on the processing

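The 99 calls of zone 2 against uninjured IP became 529 with no filter, 591 with DESeq2 and 241 with limma voom. In limma voom 49.4% of the calls were higher, against 69.7% in edgeR. With all 6 white matter IP groups in one fit there were 0. There were 36 when that fit left out 4 libraries with few detected genes or few counts, an alternative chosen after seeing the data. Without 1 library there were 48 to 150 (58% higher without zone 2 replicate 5). The causes were not tested. Of 56 named genes called, none changed sign under any alternative, and 31 lost the call only in a fit of all 6 groups.

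With no filter, zone 2 against zone 1 gave 186 calls and against zone 3 gave 399, and DESeq2 gave 59 against zone 3; in edgeR both counts were 0, also without each library in turn. The contrast of white matter with cortex gave 739 calls with no filter, 891 with DESeq2 and 180 to 622 without 1 library, against 376. The input contrast gave 360 with no filter, 284 with DESeq2 and 1 to 12 without 1 library, against 8.

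Deviations of libraries with the same replicate number had r from -0.056 to 0.024 between zone 2 and uninjured, 0.03 to 0.097 between zones 2 and 1, and -0.047 to 0.127 between zones 2 and 3; in none of these 3 comparisons was every pair above 0.1, so the numbers were not taken as pairs. With the replicate number as a block, the calls were 114 (81 shared with the 99), 275 for white matter against cortex, 0 against zones 1 and 3, and 3 for input. The block ended the calls of Lyz2, Csf2rb, Lgals9, Tgm1, Stmn2 and Ankrd34a (adjusted p 0.0519 to 0.113) and, in input, of C1qb, C1qc, Mpeg1, B2m, Fyb and Dhrs3 (0.0804 to 0.286). Limma voom ended those of Lgals9, Stmn2 and Prss12 (0.0599 to 0.0831) and, in input, of Mpeg1 and Dhrs3 (0.0838 and 0.134). With no gene set aside, Cdc37l1 had an adjusted p of 0.0501.

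The zone 2 minus uninjured difference in mitochondrial ribosomal RNA, -4.34 points, was 3.1 points when Gm42418, CT010467.1, Gm23935 and Lars2 were left out of the total. Leaving out 1 library moved Stat3 between -0.31 and 0.73 and Aldh1l1 between -0.12 and 0.61, and between regions C1qb between -0.18 and 0.41 and Serpina3n between -1.19 and 0.07; none of these 4 differences was called in edgeR.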
